A study of Homo sapiens with 6 samples.

Results

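The transcriptome of wild-type K562 cells is described here from the 3 libraries labelled WT, out of 6 in the series; the libraries of the other genotype, a knockout of the ACK kinase, were not used. K562 is a cell line from a chronic myeloid leukaemia. Its cells were kept in RPMI medium with glutamine and 10% fetal bovine serum, and the labels name no drug, transgene or stimulus. The 3 libraries are biological replicates 1 to 3, each with an RNA input of 500 ng (RNA integrity number 10). Polyadenylated RNA was captured, and the libraries were stranded. Whether they were separate cultures, thawed vials or days is not in the labels.

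K562 arose from a myeloid progenitor in which a translocation joins BCR on chromosome 22 to ABL1 on chromosome 9. The resulting fusion kinase signals through adaptors such as GRB2, GAB2 and CRKL, and keeps the transcription factor STAT5 active. The line is a textbook model of early erythroid cells. It makes embryonic and fetal globins and can be driven towards erythroid or megakaryocytic fates by chemical treatment. It is also the standard target of natural killer cell assays, because it shows little HLA class I on its surface.

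Each library is a column of normalised read counts for 19498 genes, and the columns sum to 46.7 M, 53.3 M and 50.3 M in replicates 1 to 3. The number of reads behind them is unknown, so the error of each value is the spread between 3 libraries. Replicate 1 stood apart from the others. Pearson correlations of log2(value + 1) across all genes were 0.963 for replicates 1 and 2, 0.965 for 1 and 3, and 0.985 for 2 and 3. Values are therefore given library by library for the genes that matter, and means without replicate 1 are added where it moves them. With a single group no test was made, and 2 genes are said to differ in level only where their 3 values do not overlap.

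Read counts grow with transcript length. Genes were therefore compared with each other on a length-scaled level, the normalised count divided by the length of all exons together in kilobases and scaled so that all genes of a library sum to 1000000 (parts per 1000000, ppm). On the scale of normalised counts, a gene with a mean of 1000 or more is termed abundant, one of 100 to 1000 moderate, one of 10 to 100 low, and one under 10 near silent. By these terms 7457 genes were abundant (38.2%), 4521 moderate, 4463 low and 3057 near silent (15.7%). Among them, 75 genes were at 0 in all 3 libraries. Of the 13771 protein-coding genes 52.3% were abundant, and of the 1420 long intergenic noncoding RNA genes 4.51%. The rows had been filtered on low values by the authors, so a lineage gene without a row was not analysed here.

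Abundance was steeply ranked. The single most abundant gene, MT-RNR2, took 2.45 ± 0.182% of the signal (SD, n = 3, as in all errors given as ±), the top 10 genes 11.02 ± 0.511%, the top 100 24.01 ± 0.294% and the top 1000 54.4 ± 1.02%. A share of 50% of the signal lay in 782 genes. MT-RNR2 encodes the large ribosomal RNA of the mitochondrion, and it stood at 1193308, 1194052 and 1286262 normalised counts in replicates 1 to 3. Of the 10 highest genes, 8 were encoded on the mitochondrial genome. The other 2 were EEF1A1, the elongation factor that brings aminoacyl-tRNA to the ribosome, with 979716, 1004159.9 and 872050.3, and the cytosolic chaperone HSP90AB1, with 142608, 277949 and 234119.6. The 3 values of MT-RNR2 and EEF1A1 lay close together, while HSP90AB1 was lower in replicate 1 than in both others.

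**Figure D1:**
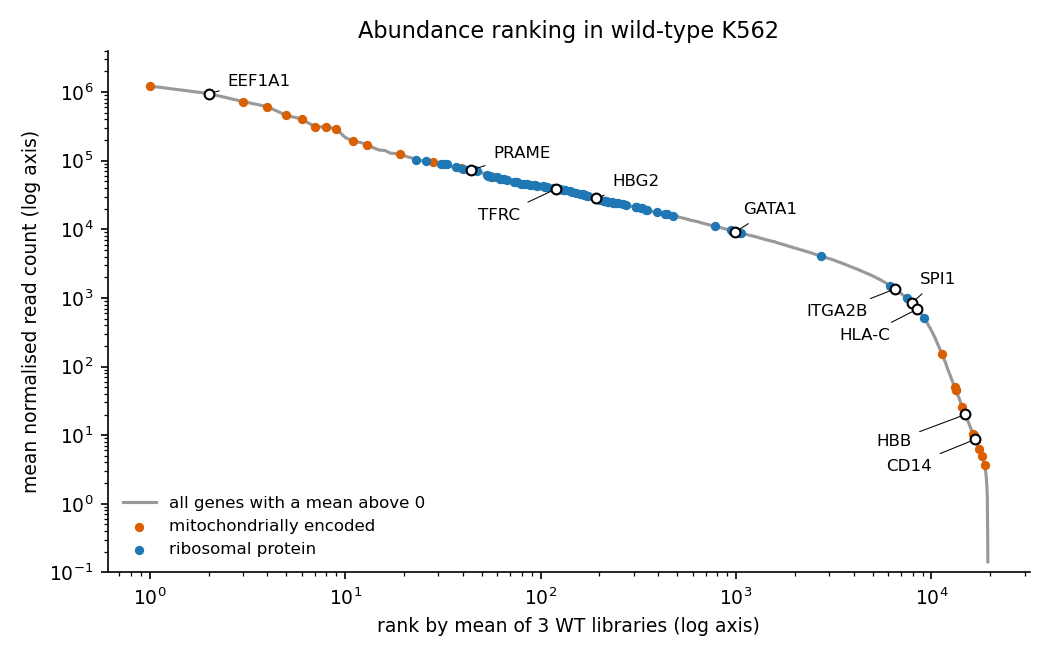
Mean normalised read count of the 3 WT libraries (y axis, log scale) against the rank of each gene (x axis, log scale), with mitochondrially encoded genes in orange, ribosomal protein genes in blue and 10 named genes as open circles. EEF1A1 is at rank 2 and PRAME at rank 44, TFRC is at rank 120 and HBG2 at rank 193, and HBB and CD14 sit far down the falling end of the curve.

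The 26 mitochondrially encoded genes with a row held 10.2 ± 0.382% of the signal. They comprise 13 protein-coding genes for subunits of the respiratory chain and ATP synthase, with 7.41 ± 0.354%, 2 ribosomal RNAs with 2.79 ± 0.111%, and transfer RNAs that were all at or below the moderate class. MT-CO1, a cytochrome c oxidase subunit, had 591107, 837943 and 753875 normalised counts. MT-ND4, a subunit of complex I, had 712482, 553238 and 573584. Per length, the small ATP synthase gene MT-ATP8 reached 29186 ± 532 ppm and its neighbour MT-ATP6 29409.9 ± 755 ppm, 2 genes whose reading frames overlap. MT-ND6, the 1 protein-coding gene on the light strand, stood at 7059.5 ± 2409 ppm, with 34171, 81557 and 60469 normalised counts. Of the heavy-strand genes MT-ND5 was at 4354 ± 461 ppm and MT-ND3 at 8114 ± 254 ppm, both overlapping MT-ND6. All other heavy-strand protein-coding genes were above MT-ND6 without overlap, from MT-CYB at 10776 ± 1429 ppm to MT-CO3 at 37698 ± 6378 ppm. The CV of MT-ND6 was 40.4%, beside 17.5% for MT-ND5 and 10.4% for MT-ND3.

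The 85 ribosomal protein genes, which encode the protein part of the cytosolic ribosome, held 6.32 ± 0.271% of the signal. Among them 83 were abundant, 76 had a mean of at least 10000, and 28 were among the top 100 genes. The highest per length were RPS12 with 4591 ± 188 ppm, RPL41 with 3477 ± 356 ppm, RPS2 with 2732 ± 198 ppm and RPS18 with 2731 ± 185 ppm. With the median transcript as length this order turned, RPS18 coming to 2406 ppm and RPS12 to 1649 ppm. The lowest in normalised counts were paralogues of the core genes, RPL39L with a mean of 511, RPL22L1 with 984, RPL26L1 with 1359.9 and RPS27L with 1509. These ribosomal genes were chosen for mention after their values were seen, as were all genes named in the text that the naming rule does not cover.

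Lists of translation factors, chaperones, cytoskeletal and nuclear proteins hold several of the highest nuclear genes, beside noncoding RNAs such as MALAT1 at rank 16. Of the translation factors after EEF1A1, EEF2, the translocation factor, had 211949, 176921 and 164038 normalised counts, EEF1G had 98844, 109103 and 93246 and PABPC1, the poly(A)-binding protein, had 138967, 150185 and 138970.3. All 17 listed translation factors were abundant, beside 52.3% of protein-coding genes over the file. Together the 17 held 3.45 ± 0.206% of the signal. The 16 listed chaperones held 1.83 ± 0.413%, led by HSP90AB1 and by HSPA8, the constitutive HSP70, with 62679, 180156 and 138887. The 18 listed nucleolar, chromatin and RNA-binding proteins held 1.96 ± 0.321%, led by the splicing regulator HNRNPA1 with 164274, 152877 and 143329 and the nucleolar protein NPM1 with 89707, 160084 and 136369. Cytoskeletal genes held 1.08 ± 0.17%. Beta-actin (ACTB) had 85483, 131929 and 138751, the tubulin gene TUBB had 90799.9, 133345 and 114889.7, and TUBA1B had 53972, 115175 and 101487. HNRNPA1 and PABPC1 varied little, whereas HSPA8, NPM1, ACTB, TUBB and TUBA1B were each lowest in replicate 1.

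Many genes of the translation machinery share a short pyrimidine-rich start, which links their translation to growth signals through mTOR. The first bases of some of the most abundant genes are shown to make this visible, from RefSeq promoters on GRCh38.p14. Each sequence runs 5′ to 3′ along the transcribed strand over 30 bases, from 10 bases before the annotated start to 20 bases from it onwards. Capitals mark any of 5 motifs of 5 bases: the run CTTTT, its variant CTCTT with an inner cytosine, the form CTTTC that ends in one, the form CTTCC with a pair at its end, or the form CCTTT with a pair at its start. Only matches whose first base lies between positions -4 and 6, counting the start base as 1 with no position 0, were taken.
EEF1A1 (chr6:73521013-73521042, minus strand): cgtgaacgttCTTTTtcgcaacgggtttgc
EEF2 (chr19:3985444-3985473, minus strand): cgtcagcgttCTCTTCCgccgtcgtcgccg
EIF4B (chr12:53006446-53006475, plus strand): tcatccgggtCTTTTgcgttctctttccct
NPM1 (chr5:171387839-171387868, plus strand): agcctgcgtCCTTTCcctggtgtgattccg
RPL13A (chr19:49487598-49487627, plus strand): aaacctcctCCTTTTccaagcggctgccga
RPS12 (chr6:132814559-132814588, plus strand): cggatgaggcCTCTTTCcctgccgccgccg
RPS18 (chr6:33272065-33272094, plus strand): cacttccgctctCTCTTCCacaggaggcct
GAPDH (chr12:6535254-6535283, plus strand): gtgcatccctgtccggatgctgcgcctgcg
ENO1 (chr1:8878667-8878696, minus strand): cggcgcggacagtatctgtgggtacccgga
LDHA (chr11:18394553-18394582, plus strand): ccagctcagagtgctgcagccgctgccgcc
NCL (chr2:231464465-231464494, minus strand): ctttcgcctcagtctcgagctctcgctggc
The last 4 of these genes, of glycolysis and of the nucleolus, hold none of the motifs that start within those positions.

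Of the 68 ribosomal protein genes with a promoter in the RefSeq table, 45 held such a start motif (66.2%). Among the translation factors it was 6 of 13 (46.2%). In all 27305 promoters of the table the share was 7.71%, and 5.59% when the opposite strand was searched. None of 16 glycolysis genes, 13 cytoskeletal genes and 15 stress response genes held one, where a share of 7.71% would give few in lists this small. Of 15 chaperone genes 1 held it, and of 16 nuclear protein genes 3 (18.8%). Without ribosomal protein genes, 12 of 56 among the top 100 nuclear protein-coding genes held it (21.4%). The motifs overlap each other, and a match describes letters only. Ribosomal protein genes with the motif had a median coefficient of variation (CV, SD over mean) between libraries of 10.8% and those without 12.4%.

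Among the globin genes, K562 read as embryonic and fetal. The gamma-globin gene HBG2 (ENSG00000196565.15, chromosome 11, 5253190 to 5505605 in GRCh38) had 13594, 38677 and 32185 normalised counts in replicates 1 to 3, and its tandem copy HBG1 (chromosome 11, 5248079 to 5249859) had 5956, 18026 and 14541. Both were lower in replicate 1 than in both others; in bulk RNA, fewer cells that express a gene and less of its RNA per cell cannot be told apart. Without replicate 1 their means were 35431 and 16283. Gamma-globin, the beta-like chain of fetal haemoglobin, made up 93.2, 97.95 and 96.6% of the beta-like normalised counts, and epsilon-globin 6.61, 1.78 and 3.16%. The annotated spans of HBG2 and HBE1 overlap on the same strand. The split between gamma and epsilon may therefore also depend on how reads were assigned. Embryonic epsilon-globin, HBE1 (chromosome 11, 5268345 to 5505652), had 1387, 1031 and 1527, with no clear low library. The delta gene HBD had 36.9, 129 and 70.5. Adult beta-globin, HBB (chromosome 11, 5225464 to 5229395), had 6.7, 26.7 and 26.7, and was thus in the low class in a cell in which HBG2 ranks 193 and HBG1 640 among all genes.

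The alpha-like genes lie in a separate cluster near the tip of chromosome 16. Alpha-globin HBA1 (chromosome 16, 176680 to 177522) had 2348, 14462 and 9195 normalised counts, its copy HBA2 had 199, 1813 and 965, and embryonic zeta-globin HBZ (chromosome 16, 152687 to 154503) had 597, 7345 and 4599. All 3 were lowest in replicate 1 by a wide margin, and without it their means were 11829, 1389 and 5972. The theta gene HBQ1 had 203, 349 and 269, and HBM had no row. Per length, HBG2 at 2039 ± 839 ppm was above HBA1 at 645 ± 424 ppm with no overlap of the 3 values. The gap was narrow, with the lowest HBG2 value at 1086 ppm and the highest HBA1 value at 1038 ppm. With the median transcript as length the means were 858 and 296 ppm, and no separation is claimed there. Next to each other in the order, HBA1, HBG1 at 487 ± 211, HBZ at 342 ± 267, HBE1 at 88.6 ± 21.1, HBA2 at 74.2 ± 57.3 and HBQ1 at 32.4 ± 6.36 ppm overlapped, while HBD at 3.88 ± 2.05 and HBB at 0.963 ± 0.526 ppm were each apart from their higher neighbour. HBA1 and HBA2, like HBG1 and HBG2, are near-identical copies, so the split within each pair depends on how the authors' counting assigned shared reads and is uncertain. The sum of all 9 globin genes was 24327, 81858 and 63377 normalised counts, or 0.0521, 0.154 and 0.126% of each library. Alpha-like genes summed to 3347, 23969 and 15028 and beta-like genes to 20980.4, 57889 and 48349, so that the shortfall of replicate 1 was larger for the alpha-like cluster.

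**Figure D2:**
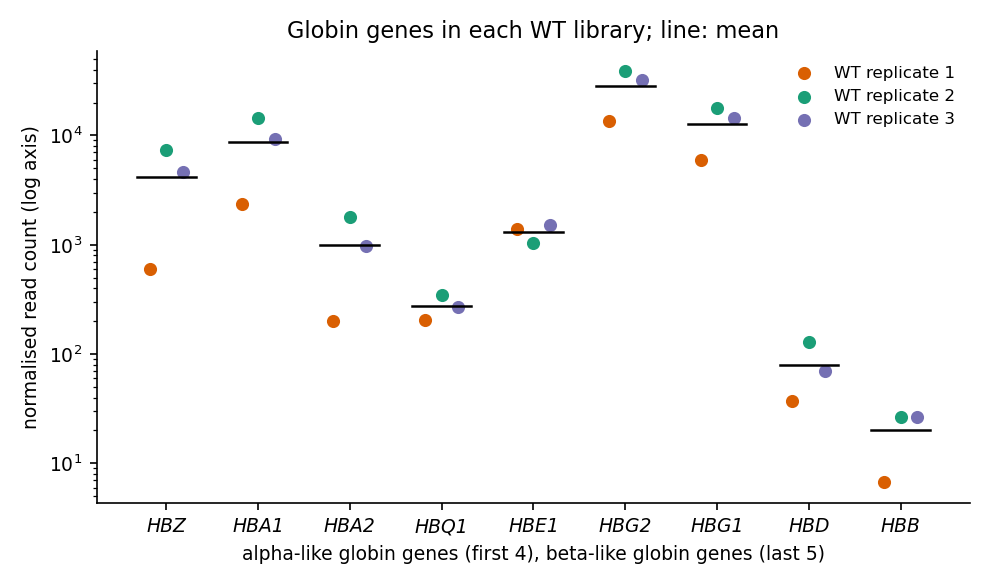
Normalised read count (y axis, log scale) of 9 globin genes in each of the 3 WT libraries, with the mean as a line, alpha-like genes left and beta-like genes right. In normalised counts HBG2 is the highest gene in every library, HBB the lowest, and replicate 1 (orange) is the lowest library for each gene except HBE1.

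The haem and iron genes that serve haemoglobin synthesis were nearly all abundant. Of 15 listed genes of haem synthesis and transport 14 had a row, and 12 of these were abundant. Over the file 38.2% of all genes were abundant, and 52.3% of protein-coding genes. HMOX1, the inducible haem oxygenase, had no row. TMEM14C, a mitochondrial carrier for the haem precursor, had 6004, 6018 and 5535 normalised counts and stood highest per length at 285 ± 26.3 ppm. UROD, a cytosolic step of the pathway, followed at 166 ± 20.97 ppm and did not overlap it. ALAS2, the erythroid form of the first enzyme, had 529, 964 and 782 normalised counts, and the ubiquitous form ALAS1 had 1849, 2022 and 1964. Per length ALAS1 stood at 49.3 ± 1.42 ppm and ALAS2 at 22.6 ± 4.98 ppm, with no overlap. Ferrochelatase (FECH), which inserts the iron, had 2500.2, 2417 and 2246 with little spread. With the median transcript as length, UROD at 168 ppm was above TMEM14C at 125 ppm, and ALAS1 at 17.1 and ALAS2 at 17.6 ppm were close, so the order of both pairs depends on that choice.

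All 14 iron genes had a row and 13 were abundant. The ferritin genes that store iron were among the highest per length in the cell, FTL at 3905 ± 633 ppm and FTH1 at 2130.5 ± 140.0 ppm. The transferrin receptor TFRC, which erythroid cells use to take up iron, had 21311, 46624 and 48662 normalised counts, and was more than 2-fold lower in replicate 1 than in each of the others. Its relative TFR2 had 5109, 4582 and 4279.6, without such a gap. The mitochondrial iron importer mitoferrin-1 (SLC25A37) had 13625, 11301 and 10246, and the iron exporter ferroportin (SLC40A1) had 3258, 3579 and 3723. The per-length values of TFRC and FTL depend strongly on the transcript length used: with the median transcript as length, TFRC came to 1306 ppm and FTL to 1161 ppm, below FTH1 at 1634 ppm.

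Of 24 listed red cell membrane genes 15 were abundant, 4 moderate, 4 low and 1 near silent. Of all protein-coding genes in the file 52.3% were abundant and 8.29% near silent. The Rh-associated glycoprotein RHAG had 10287, 13119 and 11566 normalised counts and led the list per length with 277 ± 13.7 ppm, apart from all others; with the median transcript as length ANK1 at 212 ppm was above RHAG at 183 ppm. Glycophorin C (GYPC) had 7359, 5879.5 and 4893, ankyrin (ANK1) had 11602, 14568 and 12937, and protein 4.1 (EPB41) had 19991, 18198 and 17005. The beta-spectrin gene SPTB had a mean of 4499 ± 344. GYPB and GYPE are close paralogues, as are RHD and RHCE, and reads may be split among them.

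The 9 other genes of the list were moderate to near silent. Band 3 (SLC4A1), the anion exchanger that is the main membrane protein of the mature red cell, had 134, 73.2 and 260.4 normalised counts. Protein 4.2 (EPB42), its binding partner, had 37.6, 40.3 and 24.4. The carbonic anhydrase gene CA1 had 21.8, 37.9 and 32.1, and CA2 had 19.5, 17.6 and 15.4. The Duffy antigen gene ACKR1 had 4.71, 5.15 and 18.7, the lowest member of the list, and RHD and RHCE had means of 102 and 139. Against RHAG at 277 ppm, SLC4A1 stood at 1.97 and EPB42 at 0.722 ppm.

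The list of erythroid factors, transcription factors and their partners with the receptor EPOR, had the lowest median CV of the 18 lineage lists. All 14 had a row and 11 were abundant, beside 52.3% of protein-coding genes over the file. Their median CV was 10.9%. It was 18.1% for all 11978 genes with a mean of 100 or more and 15.7% for those of 1000 or more. GATA1 (chromosome X, 48786554 to 48794311), the master factor of the lineage, had 9877, 8842 and 8921 normalised counts and the highest level per length, 397 ± 53.97 ppm. KLF1, which activates adult beta-globin, had 4607, 4684 and 3967 at 177 ± 20.8 ppm. MYB, which keeps progenitors dividing, had 14608, 11106 and 14469 at 158 ± 32.9 ppm and overlapped KLF1. The partners of the GATA1 complex LDB1, LMO2 and TAL1 had means of 6459 ± 351, 2970.5 ± 130.1 and 2919 ± 294, and GATA2, usually the earlier factor, had 4979.6, 6401 and 6238. With the length of all exons, the 3 lowest were EPOR, the erythropoietin receptor, and the repressors of gamma-globin BCL11A and SOX6. EPOR had 964, 704 and 552, BCL11A had 983, 923 and 1072 and SOX6 had 724, 411 and 488 normalised counts; with the median transcript as length BCL11A and SOX6, at 14.3 and 14.8 ppm, were above EPOR at 7.57 ppm.

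GATA factors bind a short element, and the upstream stretches of RHAG, ALAS2 and KLF1 are shown because they hold it and belong to the genes just described. Each is the 150 bases before the annotated start in GRCh38.p14 (RefSeq), 5′ to 3′ on the gene's strand, with matches to AGATAA or TGATAA on either strand in capitals (TTATCT or TTATCA on the strand printed).
RHAG (chr6:49636840-49636989, minus strand): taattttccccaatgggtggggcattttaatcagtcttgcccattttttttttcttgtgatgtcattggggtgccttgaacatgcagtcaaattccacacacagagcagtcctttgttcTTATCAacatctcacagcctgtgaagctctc
ALAS2 (chrX:55030978-55031127, minus strand): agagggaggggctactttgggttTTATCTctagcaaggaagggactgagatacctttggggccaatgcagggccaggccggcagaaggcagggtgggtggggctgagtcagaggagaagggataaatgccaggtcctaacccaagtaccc
KLF1 (chr19:12887202-12887351, minus strand): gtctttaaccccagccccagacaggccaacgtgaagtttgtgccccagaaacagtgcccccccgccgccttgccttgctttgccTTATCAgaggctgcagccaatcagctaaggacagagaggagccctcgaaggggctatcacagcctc
Within promoters of 300 bases, from 250 before the start to 50 after it, such an element was found in 8 of 15 red cell membrane genes (53.3%) and 3 of 12 erythroid factor genes (25%). The share was 16.6% of all promoters and 7.12% of those of abundant nuclear protein-coding genes. Of 12 haem genes 2 held it (16.7%), and of 11 iron genes none.

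Of 19 megakaryocytic genes 11 had a row and 4 of these were abundant, beside 52.3% of protein-coding genes over the file. The integrin alpha chain ITGA2B (CD41) had 1661, 1010.0 and 1387 normalised counts, while its partner on platelets, ITGB3, had 62.7, 35.9 and 27.8. GP1BB, part of the von Willebrand factor receptor, had 1901, 2299.6 and 2278; GP1BA, GP9 and the platelet granule genes PF4, PPBP, VWF and SELP had no row. Serglycin (SRGN), a granule proteoglycan shared by many blood cells, led per length at 192 ± 33.97 ppm. ANGPT1 had 4539, 4665 and 5990.3. Platelet tubulin TUBB1 and thrombospondin THBS1 were low to near silent, with means of 23.2 and 5.79.

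Of 19 monocyte and granulocyte genes 11 had a row. Beside 52.3% of protein-coding genes over the file, 3 of the 11 were abundant. These were the Fc receptor FCGR2A with 7581, 2958 and 3219.6, the sialic acid receptor CD33 with 2706, 2831 and 2495 and the integrin ITGAM with 3712, 1353 and 1088. CD33 was even between libraries, but FCGR2A and ITGAM were more than 2-fold higher in replicate 1 than in each of the others. The myeloid master factor SPI1 (PU.1) was moderate with 1106, 648 and 777. Lysozyme (LYZ) had 422, 412 and 531, CEBPA 119.6, 63.9 and 89.6 and CD14 13.3, 7.07 and 5.8. The granule protease gene AZU1 had 300.4, 43.6 and 43.4 and PRTN3 had 10.6, 2.69 and 8.99. Myeloperoxidase (MPO), ELANE, CTSG, S100A8 and S100A9 had no row. Of the mast cell, basophil and eosinophil genes, the eosinophil granule protein PRG2 had 2192, 2464 and 1908, even between libraries, while EPX, HDC and IL5RA had means of 3.36, 1.52 and 11.7.

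Among 12 stem and progenitor genes KIT with 2758, 1321 and 1472 and MECOM with 1365, 1553 and 1780.2 were abundant and MEIS1 moderate with 338, 399 and 459. HLF was near silent at a mean of 4.19, and CD34, FLT3, PROM1, HOXA9, ERG, THY1, SPINK2 and CRHBP had no row. No B-cell gene was abundant: CD22 had 384, 160.4 and 178, and the antigen receptor chains CD79A and CD79B had means of 5.69 and 6.63. In the list of T-cell and natural killer cell genes 8 of 18 had a row. Of these 2 were abundant, beside 52.3% of protein-coding genes over the file. CD3D and CD3G, neighbouring genes on chromosome 11 for chains of the T-cell receptor complex, were the highest: CD3D had 399.6, 1121 and 1679 normalised counts, and CD3G had 322, 1216 and 1577. Both were lowest in replicate 1 and highest in replicate 3, and both fall below 1000 when replicate 3 is left out; without replicate 2 only CD3D stays above 1000. The third chain gene of that cluster, CD3E, had 32.9, 41.7 and 56.4, and ZAP70, GATA3 and NKG7 had means of 16.4, 25.8 and 4.95. Perforin (PRF1) was moderate with 715, 652 and 1102.

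**Figure D3:**
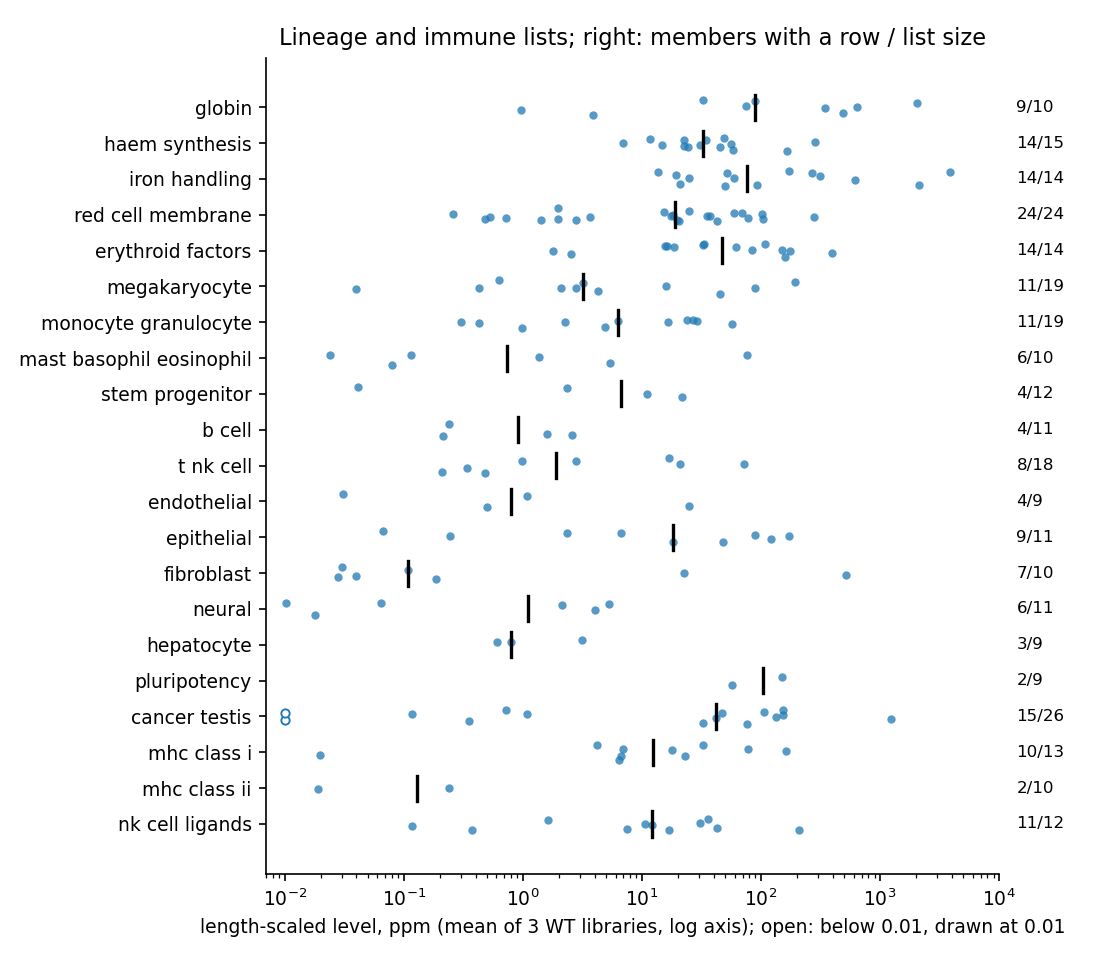
Length-scaled level (x axis, ppm, log scale, mean of 3 WT libraries) of each member of 21 lineage and immune lists, 1 point a gene, with the median as a line and, at the right, how many of the listed genes had a row. The medians of the 2 pluripotency genes and of the globin, iron handling and erythroid factor lists lie furthest right, and single genes such as VIM, PRAME and FTL lie far from the median of their list; open points are the 2 genes at 0.

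Of genes for tissues outside the blood, 5 of 9 epithelial genes with a row (11 listed) were abundant. So were 2 of 7 fibroblast genes (10 listed) and 2 of 2 pluripotency genes (9 listed). None of the endothelial, neural and hepatocyte genes were. Over the file the share was 38.2% of all genes and 52.3% of protein-coding genes, close to that of the epithelial genes. In the epithelial list the simple keratin KRT18 had 5787, 10881 and 9388, its partner KRT8 had 4608, 5158 and 5770.3, and the adhesion molecule EPCAM had 4344, 5171 and 4857, whereas E-cadherin (CDH1) had 13.03, 3.11 and 2.26. In the fibroblast list vimentin (VIM) had 40226, 40077 and 43575 and fibronectin (FN1) 7420.3, 5343 and 5435, whereas the collagen genes COL1A1 and COL3A1 and the proteoglycan DCN had means of 16.3, 3.05 and 5.79. Endothelial genes were led by EGFL7 with 624, 1075 and 1274, which passes 1000 without replicate 1, and TIE1 was near silent at 3.24. Among neural genes SYP led with 289.8, 514 and 492, and SNAP25, MAP2 and GFAP had means of 3.22, 3.02 and 1.98. Of the hepatocyte genes AFP had 151, 103 and 221, and ALB, APOA1 and APOB had no row. The pluripotency list held 2 abundant genes, the let-7 antagonist LIN28B with 9262, 16213 and 16928 and the DNA methyltransferase DNMT3B with 2609, 4844 and 5107, both lowest in replicate 1; POU5F1, SOX2, NANOG and LIN28A had no row.

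Cancer-testis genes, normally expressed in germ cells, ranged from the highest ranks to 0. PRAME (chromosome 22, 22547701 to 22559361) had 71711, 77379.8 and 69103 normalised counts, a CV of 5.82%, and rank 44 of all genes. Per length it stood at 1238 ± 75.6 ppm, close to HSP90AA1 at 1329 ± 170.1 ppm. The MAGE genes MAGEA3, MAGEA6, MAGEC1 and MAGEC2 had means of 3796 ± 1687, 3129 ± 1419, 2839.6 ± 1496 and 1482 ± 332. CTAG2 had 1557, 3028 and 2553, GAGE1 had 2449, 4797 and 4422 and GAGE12J had 723, 1662 and 1542. PRAME was even between libraries, and these others were all lowest in replicate 1. The family was not on as a whole: CT45A1, MAGEB2, PAGE2B and SSX1 had means of 22.1, 8.53, 5.59 and 2.28, and MAGEA1 and PAGE1 were at 0 in all 3 libraries. The GAGE genes, and MAGEA3 with MAGEA6, are near-identical copies whose individual values are uncertain.

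Among antigen presentation genes the light chain gene of HLA class I was abundant, and the heavy chain genes HLA-B and HLA-C were moderate. Beta-2-microglobulin (B2M), the invariant chain of HLA class I, had 14779, 16159.9 and 15259 normalised counts, and B2M varied little. Both heavy chain genes were far lower per length, HLA-C at 17.9 ± 5.62 ppm with 878, 586 and 599 normalised counts and HLA-B at 4.18 ± 1.6 ppm with 264, 154 and 168, beside 163 ± 5.21 ppm for B2M. No value of either overlapped those of B2M. The non-classical HLA-E had 2352, 867 and 1168. NLRC5, which activates class I transcription, was near silent with 7.66, 0 and 3.23, and the peptide transporter gene TAP1 had 747, 389 and 334. Its partner TAP2 had 1995, 2582 and 2371. Of 10 class II genes only HLA-DMA and the transactivator CIITA had a row, near silent at means of 9.33 and 6.27.

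Ligands for natural killer cells were present at several levels. BAG6, a chaperone that is also a ligand of NKp30, had 15955, 17619 and 17721, and NCR3LG1 (B7-H6), the dedicated ligand of the same receptor, had 3163, 3735 and 3959. Of the DNAM-1 ligands NECTIN2 had 2946, 2029.9 and 2465 and PVR had 1076, 425 and 453. Of the NKG2D ligands MICB had 1538, 1273 and 1168 and MICA 450.1, 379 and 337. ULBP1 had 1868, 182 and 293 and ULBP2 had 347, 46.98 and 55.99, both several times higher in replicate 1 than in the other libraries, while ULBP3 and RAET1G were near silent at means of 5.66 and 2.64.

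All 17 listed genes of BCR::ABL1 signalling were abundant, beside 52.3% of protein-coding genes over the file. Reads were counted by gene, so fusion and normal transcripts of BCR and ABL1 cannot be told apart. ABL1 had 15455, 13906 and 13712 and BCR 6477, 6431 and 6339 normalised counts. The adaptor CRKL, a main substrate of the fusion kinase, had 34689, 49146 and 46112 and stood at 519 ± 58.2 ppm, against 102 ± 10.1 ppm for GRB2. STAT5A had 13298, 14142 and 15267 and STAT5B 18804, 8869.9 and 10599. Of the genes that STAT5 activates, the kinase PIM1 had 69788, 26467 and 26886, the cytokine signalling inhibitor CISH 7157, 5045 and 4349.6, and the survival gene BCL2L1 8759, 7649.6 and 7935. PIM1, STAT5B and the adaptor GAB2, which had 18407, 6329.8 and 5557, were higher in replicate 1 than in both others, and PIM1 without replicate 1 had a mean of 26676. CCND2, SHC1 and BCR were even.

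Chromosome 9p21 is deleted in K562. Of 10 listed genes of the region, MTAP, CDKN2A, CDKN2B and 5 others had no row. This cannot check the labelled line, because rows were filtered on low values. Other lists lacked many rows too, such as 8 of 12 stem and progenitor genes. The other 2 genes had values, FOCAD 24.4, 60.4 and 54.00 and MLLT3 20.02, 5.51 and 15.9 normalised counts. The 22 listed proliferation genes were all abundant, beside 52.3% of protein-coding genes over the file. TOP2A had 51869, 40688 and 46165, MKI67 19269, 20588 and 24197 and PCNA 5120.2, 8991 and 8397.

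The spread between the 3 libraries was mainly the distance of replicate 1. The median CV of genes with a mean of 100 or more was 18.1%. It was 6.54% without replicate 1, 19.03% without replicate 2 and 21.9% without replicate 3. Replicate 1 was at least 2-fold above both others in 667 genes and at least 2-fold below both in 590, together 10.5% of 11978. With each library at the same total the split was 905 above and 413 below. For replicate 2 this share was 0.442% and for replicate 3 0.142%. Genes of 100 to 1000 had a median CV of 22.97%, and those of 1000 or more 15.7%.

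Among lists with 3 or more genes at a mean of 100 or more, the median ratio of replicate 1 to the others was highest for stress response genes. Of 17 listed stress response genes replicate 1 was the highest library for 16, against 41.5% of all genes, and its median ratio to the mean of replicates 2 and 3 was 2.62, beside 0.961 for all genes. Asparagine synthetase (ASNS), a target of ATF4, had 18847, 3708 and 4019.8 normalised counts. PHGDH, the first enzyme of serine synthesis, had 14592, 2396 and 3016, and TRIB3, another ATF4 target, had 7833, 1894 and 1935. VEGFA, the angiogenic factor, had 18277, 4182 and 4116, and the inducible HSP70 gene HSPA1A had 47163, 14644 and 11551. In each of these the replicate 1 value was more than 3 times each of the others. Lists and members were chosen with earlier results of these data known, so such counts and ratios by list only describe. HSPA1A and HSPA1B are near-identical copies, so the split between them is uncertain. TXNIP, which responds to glucose supply, was the exception with 6262, 9754 and 11319, lowest in replicate 1. Class I genes had a median ratio of 1.64. Monocyte and granulocyte genes had one of 2.00, but AZU1 and CSF3R passed a mean of 100 only through replicate 1. Over the 6 genes that pass it in the mean of replicates 2 and 3, the ratio was 1.41, a filter chosen after seeing the data; for stress response genes it was 2.6 over 16 genes.

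Glycolysis genes went the other way. Replicate 1 was the lowest library for 15 of 16 (13 with each library at the same total), against 48.8% of all genes, with a median ratio of 0.446. GAPDH had 43155, 103091 and 94275, LDHA, which turns pyruvate into lactate, 19346, 71603 and 67627, and ENO1 34448, 95545 and 87748. Phosphofructokinase genes departed from this, PFKL having 5553, 5606 and 5679. Globin genes had a median ratio of 0.366, cancer-testis genes 0.511, chaperones 0.575, cytoskeletal genes 0.592 and nuclear proteins 0.653. Erythroid factors at 0.986, haem genes at 0.951 and iron genes at 0.958 were near the value of all genes. When each library was set to the same total, the median ratio of all genes moved by 0.149 on the log2 scale to 1.07, and the ratios of erythroid, haem and iron genes passed above 1. Those of stress response genes (2.9), glycolysis (0.496) and globin genes (0.407) stayed on their side of 1. What set replicate 1 apart was not tested, and the labels give no date or batch.

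**Figure D4:**
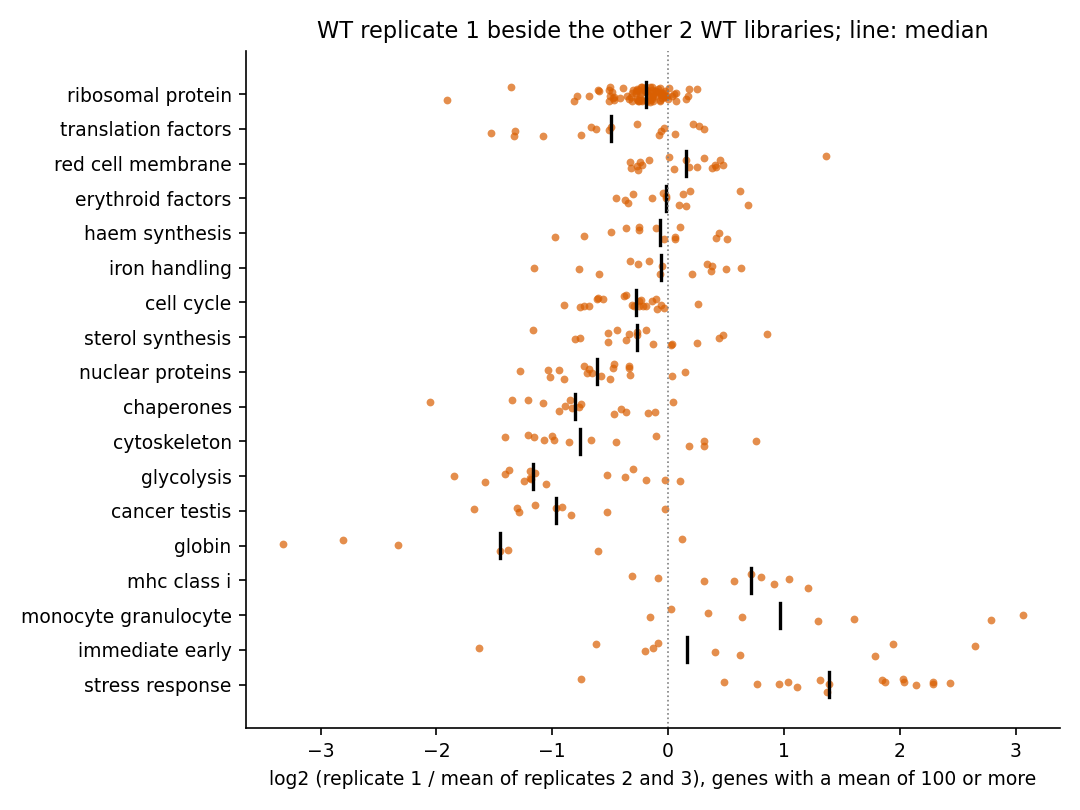
Log2 ratio of WT replicate 1 to the mean of replicates 2 and 3 (x axis) for each gene with a mean of 100 or more in 18 gene lists, 1 point a gene, with the median as a line and equality as a dotted line. Stress response genes lie right of 0 with 1 exception, glycolysis, chaperone and globin genes lie mostly left, and ribosomal protein and erythroid factor genes lie near 0.

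Genes in common use as normalisation references differed widely in how steady they were. In the deposited scaling GUSB had a CV of 3.46%, B2M 4.55%, RPLP0 5.28% and SDHA 6.53%. Such CVs, and their order, can change when each library is set to the same total. ACTB reached 24.4%, PPIA 37.3%, POLR2A 40.1%, GAPDH 40.4% and PGK1 41.7%, each higher than the median of all genes. A CV of 40.4% placed GAPDH above 87.03% of the genes with a mean of 100 or more. Ribosomal protein genes had a median CV of 10.8%, RPS26 being the most variable with 3395, 13515 and 11972 normalised counts.

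Among abundant protein-coding genes the steadiest was PRPF39, a splicing factor, with 2365, 2359.7 and 2368 normalised counts and a CV of 0.171%. The others of the 10 steadiest were CCDC88C, CDC42EP4, ADAM17, TNPO3, CWC27, RB1, AGBL5, SPAG7 and CCDC82, with CVs up to 0.567%. These 10 are the low end of 7209 genes over 3 values, so the choice of genes sets their steadiness in part. It also depends on the deposited scaling, as the column totals differ. At the other end AKNA, a gene for a centrosomal AT-hook protein, had 5559.7, 321 and 385 and a CV of 144%. ATF5, a stress-responsive transcription factor, had 15984, 2212 and 1462, PAPPA, a metalloprotease, 4459, 685 and 551, and the immediate early gene JUN 3582, 615 and 530.4. SLC1A4, a neutral amino acid transporter, had 2693, 463 and 433. PHGDH, UNC5B, ACSM3, YPEL5 and HSPA1B completed the 10 most variable, and the high library was replicate 1 in these 10, by 4.89-fold to 15.8-fold over the mean of the other 2. A CV this large over 3 values can come only from a single high library, and 6 of the 10 are under 1000 without replicate 1, so the choice of genes sets this pattern in part. Without replicate 1, AKNA had a mean of 353 and ATF5 one of 1837.

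**Figure D5:**
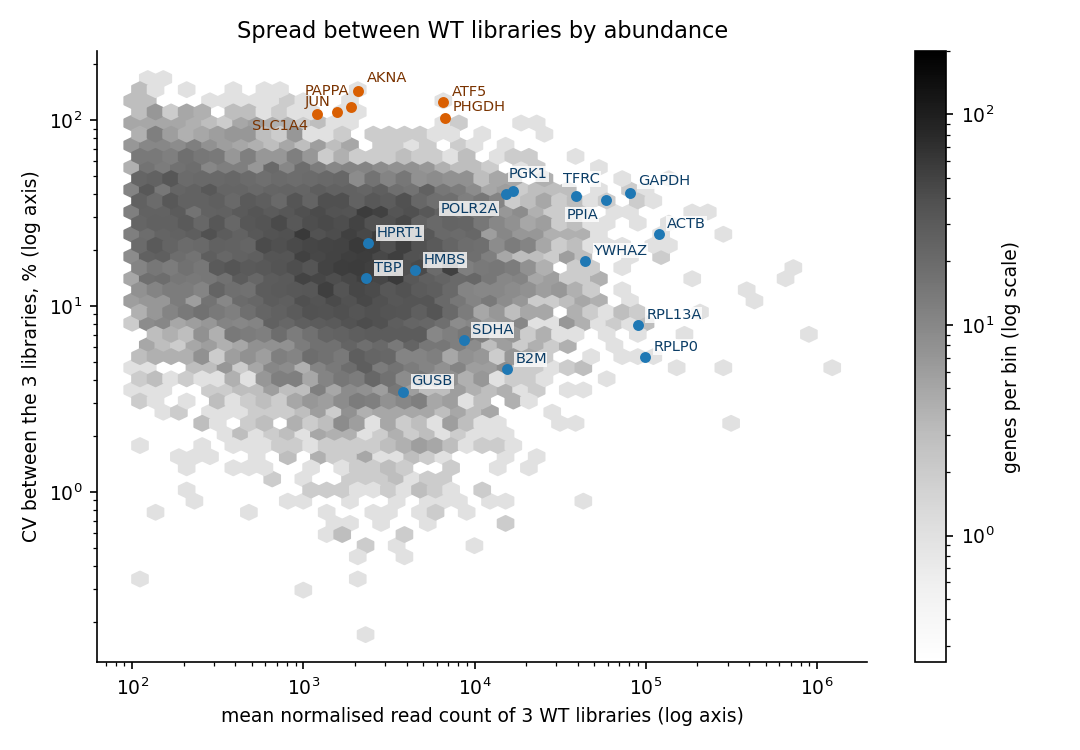
CV between the 3 WT libraries (y axis, %, log scale) against the mean normalised read count (x axis, log scale) for genes with a mean of 100 or more, shaded by genes per bin, with 15 reference genes in blue and the 6 most variable abundant genes in orange. GUSB, B2M and RPLP0 lie below most of the genes drawn, while PGK1, GAPDH, POLR2A, TFRC and PPIA lie near 40%.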

How the data were processed

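RNA was sequenced by the authors from 3 WT libraries of K562 used here. The authors deposited 1 signal value per gene and library, a normalised count that is neither whole nor logged, and the depth behind it is unknown. Per the submitters' processing notes R 3.6.1, STAR 2.7.2b, DESeq2 1.26.0, FastQC 0.11.7, Salmon 1.1.0 and SAMtools were used with GRCh38, with no role stated. The sources used here do not give the gene annotation. The lowest mean of a row over all 6 libraries is 3.38, so rows were filtered. Symbols matched 19392 of 19498 identifiers in a name table, and positions, biotypes and exon lengths 19112 in GENCODE 29, matched without version.

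From these values means, SDs, CVs (mean of at least 100), shares of each library's total, length-scaled levels and list counts were computed with Python 3.11.15, numpy 2.4.6 and pandas 2.3.3, and checked on simulated data. Figures used matplotlib 3.10.9. A length-scaled level cannot follow which transcripts are used, so it shifts with the length chosen. A few listed genes are not reported here. RPS19BP1 was kept out of the ribosomal protein genes. Promoter sequences are RefSeq's, matched by symbol. Genes named are the 30 highest, up to 6 highest members of each list per length and 3 lowest of each lineage list, and the 10 highest and lowest CVs among abundant protein-coding genes. Members and lists were chosen with earlier results of these data known. Alternatives were other lengths and scalings, no mitochondrial genes, other thresholds and leaving out each replicate.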

Additional observations from a re-analysis of the deposited data

How the results depend on the processing

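No result had a test, so settings could move values only. Without mitochondrially encoded genes the top 10, 100 and 1000 genes held 5.06%, 16.8% and 49.5% of the signal, and ribosomal protein genes 7.04%. With classes cut on length-scaled levels at 100, 10 and 1 ppm, 1260 genes were abundant and 5082 near silent, and the abundant count fell in 14 of 18 lineage lists. These cuts are not matched to those on normalised counts, so a stricter threshold and the length scaling cannot be told apart. SPTB, with a mean of 4499, stood at 19.6 ppm. The median CV ranged from 6.54% to 21.9% when each replicate was left out. Of 27 named length-scaled levels, 8 moved by more than the spread between libraries with the longest transcript as length. With the median transcript 17 did (by a factor of 0.297 to 4.19). Scaling over nuclear protein-coding genes must raise every level, here by a factor of 1.61 to 1.67, and keeps the order of genes within a library. With it 23 of the 27 moved by more than that spread. Leaving out a replicate moved 4 of the 27 by over 1.5 times. Without replicate 1, ASNS came to 53.7 from 134 ppm, PIM1 to 555 from 912 and FCGR2A to 36.02 from 57.02. Without replicate 2, HBZ came to 222 from 342. Leaving out replicate 2 or 3, the list of T-cell and natural killer cell genes kept 1 or 0 abundant genes. EGFL7 made 1 endothelial gene abundant with the median or without replicate 1. Scaling each library to the same total cannot change a share of that library's own total, except through the ranking of genes, so it says nothing on the shares. It gave a median CV of 18.02%. No paired analysis was possible because only 1 group was analysed and no result comes from a test. Depth is unknown, so counting error for low genes is not known.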

Other observations

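Outside the protein-coding genes a few RNAs reached the top ranks. The nuclear RNA MALAT1 (chromosome 11, 65497688 to 65506516 in GRCh38) was at rank 16 with 174001, 130459 and 117539 normalised counts in replicates 1 to 3. A little-described long intergenic RNA gene, AL713998.1 (ENSG00000227706.4, chromosome 6, 67887646 to 67889339), was at rank 24 with 142313, 73828 and 85288, and per length at 4101 ± 1807 ppm its 3 values overlapped those of RPL41; with the median transcript as length it came to 1219 ppm and was below RPL41 at 2205 ppm. The imprinted RNA MEG3 was at rank 36 with 123521, 57540.1 and 62665. All 3 were highest in replicate 1. H19, another imprinted RNA, had 470.4, 1077 and 1051, lowest in replicate 1. The snoRNA hosts GAS5, SNHG1 and SNHG5 had means of 15371 ± 3434, 17669 ± 2414 and 16901 ± 833, and NEAT1 had 24196, 30191 and 35736. AL713998.1 was picked for its value, and the other genes belong to the noncoding list.

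Among single genes ACSM3, a mitochondrial acyl-CoA synthetase gene on chromosome 16, had 37300.3, 6072 and 8462 normalised counts, the highest mean of the 10 most variable abundant genes after HSPA1B. EGR1, an immediate early factor, was 1 of 5 genes in which replicate 3 was at least 2-fold above both others, with 2085, 3078 and 9845. The transferrin gene TF had 745, 53.5 and 124 and the liver factor HNF4A 172, 6.56 and 14.3, both from the hepatocyte list and both higher in replicate 1.

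Of RNAs that carry no poly(A) tail, 13 had a row, of which 2 were abundant, 4 moderate and 7 low. RN7SK had 636, 681 and 659 normalised counts, RN7SL1 119, 169 and 153 and RNU2-1 42.2, 49.02 and 71.2. Among replication-dependent histone genes H1-2 had 3444, 2054 and 2735 and H2AC6 1850.1, 1305 and 1539.7, whereas H4C3 had 23.8, 14.9 and 27.5. The whole list held 0.0121 ± 0.00257% of the signal.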
